A study of Canis lupus familiaris with 10 samples.

Results

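CD2, CD5, CD6, CD7 and CD27 encode receptors on the surface of T cells that act beside the T cell receptor. They were followed here in early and late canine cutaneous histiocytoma (CCH). This tumour of canine skin is benign, derives from Langerhans cells and usually regresses on its own. The genes were chosen by name, with earlier results of these data known, and all 5 of them were on the panel of 800 genes.

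The samples were formalin-fixed, paraffin-embedded tumours of 10 pet dogs, each tumour from a different dog. In the Cockerell and Slauson staging scheme, 5 tumours were in group 1 (early CCH) and 5 in group 3 (late CCH), which the labels call lymphocyte enriched. No dog had a stated treatment. The early dogs were labelled French Bulldog (2 dogs), Goldendoodle, Terrier and Boxer, and the late dogs Rottweiler, Beagle, Pug, Bullterrier and Jack Russell Terrier. Known ages ran from 0.5 to 5 years in 4 early dogs and from 1.5 to 9 years in the 5 late dogs. There were 3 males, 1 female and 1 dog of unstated sex in the early group, and 4 males and 1 female in the late group, and early 1, early 4 and late 1 were neutered males. Stage was read from histology, in which lymphocytes themselves count, so a T cell gene is not independent of how the tumours were grouped.

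Total RNA was measured with the nCounter Canine IO Panel, where a colour-coded barcode is counted for each bound transcript without amplification. Values are normalized counts, scaled to positive controls and housekeeping genes. The barcode counts recovered from them summed to 484696 to 823763 per early tumour and 945399 to 1253083 per late tumour. Background, taken as the mean plus 2 SD of the 8 negative probes of a sample, lay at 21.8 to 38.2 normalized counts in early and 19.2 to 26.9 in late tumours. DV200, the percentage of RNA fragments longer than the standard cut-off for fixed tissue, was 64.5 to 71.2 in early and 71.2 to 75.8 in late tumours. All early tumours were run on 1 cartridge and all late tumours on another, so cartridge and stage cannot be told apart. The ratio of positive control A to B was 2.09 to 2.17 on the early and 2.72 to 2.84 on the late cartridge. In bulk tissue, fewer T cells and less RNA per T cell cannot be told apart either. Of the markers of Langerhans cells, CD207 (langerin) exceeded background in 1 early and 1 late tumour, whereas CDH1, the adhesion molecule E-cadherin, exceeded it in all 10.

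A T cell recognises antigen through the T cell receptor and its CD3 chains, and the accessory receptors set how firmly the cells adhere and how strong the signal becomes. CD2 is an adhesion and costimulatory receptor of T and natural killer cells that binds CD58. CD5 and CD6 are related scavenger receptor proteins that dampen or tune receptor signalling, and CD6 binds the adhesion molecule ALCAM. CD7 is an immunoglobulin-like receptor that appears early in the T cell lineage. CD27 belongs to the tumour necrosis factor (TNF) receptor family, binds CD70 and promotes survival of activated T cells. In the dog reference annotation UU_Cfam_GSD_1.0, from RefSeq, CD5 and CD6 were neighbouring protein-coding genes with 0 others between them, and 1 gene separated CD2 from CD58.

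Each of the 5 genes was higher in late CCH, with every late tumour above every early tumour. CD6 differed most, by 9.39-fold, followed by CD5 (7.65-fold), CD27 (5.76-fold), CD2 (5.18-fold) and CD7 (2.30-fold). This order depends on low early values. With values raised to the highest background, the log2 fold change, early minus late, was -2.28 for CD27 and -2.37 for CD2, and -3.01 for CD6 and -2.94 for CD5. CD27 (-2.30) also fell behind CD2 (-2.34) with a pseudocount of 10. With DV200 as a covariate, CD2 (-1.19) fell behind CD7 (-1.23). CD5, CD6 and CD27 passed the Benjamini-Yekutieli (BY) adjusted threshold of 0.05 together with a change of at least 2-fold, whereas CD2 and CD7 passed only the less strict Benjamini-Hochberg (BH) adjustment. Thus, 3 of 5 were called higher in late CCH, beside 9.2% of the 761 tested genes in that direction and 11.2% in both. At a BH adjusted p of at most 0.05, 5 of 5 were higher in late CCH, beside 27.3% of tested genes. A full separation of the groups with late above early was found for 19.2% of tested genes. In the opposite direction, 1.97% of genes were called, 8.41% passed BH and 5.39% separated the groups, and 35.7% passed BH in either direction.

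CD2, the adhesion receptor, was measured at 229.6, 348, 1630.2, 1089 and 169 normalized counts in early tumours 1 to 5. In late tumours 1 to 5 it stood at 2572, 2571, 2009, 3192 and 2132. The early group thus spread 9.67-fold between its lowest and highest tumour and the late group 1.59-fold, and early 3 came within 1.23-fold of the lowest late tumour. The means were 693 ± 641 (SD, n = 5) and 2495 ± 465 (SD, n = 5). The log2 fold change, early minus late, was -2.37 (SE 0.58), with a limma BH adjusted p of 0.0113 and a BY adjusted p of 0.0817. Of the 10 fits that left out 1 tumour, CD2 passed the BY threshold in 1, without early 3, the early tumour with the most CD2 (-2.82, BY adjusted p = 0.0210), and the BY adjusted p was 0.0597 to 0.217 in the others.

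CD5, the first of the scavenger receptors, was at 55.01, 141, 351, 359 and 79.6 normalized counts in early tumours 1 to 5. The late tumours had 1437, 1099, 1197, 1427 and 784. The groups were separated by a 2.18-fold gap between early 4 and late 5. Means were 197 ± 147 for early CCH and 1189 ± 270 for late CCH (SD, n = 5 each). The log2 fold change was -2.94 (SE 0.51), with a limma BY adjusted p of 0.0196. The BY adjusted p ran from 0.0147 to 0.0673 when single tumours were left out, and the call was lost without early 5, late 1, late 2 or late 4. It was also lost with DV200 as a covariate (limma BY adjusted p = 0.899), in male dogs (0.159) and with the replicate number as a block (0.0879).

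CD6, the neighbour and relative of CD5, was at 16.9, 56.0, 95.5, 87.3 and 41.7 normalized counts in early tumours 1 to 5. In the late tumours it was at 473, 606, 459, 485 and 422, the narrowest spread of the 5 genes in this group on the log2 scale (SD 0.19). Early 1 was below its background of 21.8 and the other 4 early tumours were above theirs, while the lowest late tumour exceeded the highest early tumour 4.42-fold. Means were 59.5 ± 32.4 (SD, n = 5) and 489 ± 69.5 (SD, n = 5). The log2 fold change was -3.23 (SE 0.42), with a limma BY adjusted p of 0.00746. Only 6 of the 761 tested genes had a lower log2 fold change, and CD6 was called in each of the 10 fits that left out 1 tumour. The call was lost with DV200 as a covariate (BY adjusted p = 0.281), in male dogs (0.1396) and with the replicate number as a block (0.0748).

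CD7, the immunoglobulin-like receptor, was close to background in early CCH, at 20.1, 33.9, 38.6, 52.7 and 36.0 normalized counts in tumours 1 to 5. The late tumours had 112, 64.1, 78.8, 113 and 55.1. Early 1 and early 2 were below background, and early 4 and late 5 were only 1.05-fold apart, on 32 and 51 recovered counts. Means were 36.3 ± 11.6 (SD, n = 5) and 84.6 ± 26.8 (SD, n = 5). The log2 fold change was -1.20 (SE 0.30), with a limma BH adjusted p of 0.0117 and a BY adjusted p of 0.0843. It fell short of 2-fold when values were raised to the highest background (-0.98), rescaled to the geometric mean of all tested genes (-0.82) or quantile normalized (-0.94).

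CD27, the TNF receptor, was at 15.9, 50.9, 134, 109 and 39.8 normalized counts in early tumours 1 to 5. The late tumours had 419, 353, 202, 334 and 331. Late 3 was the lowest late tumour, 1.51-fold above early 3, and early 1 was below background. Means were 69.9 ± 49.5 (SD, n = 5) and 328 ± 78.9 (SD, n = 5). The log2 fold change was -2.53 (SE 0.52), with a limma BY adjusted p of 0.0353. The call was lost without any of early 2, early 5, late 1, late 2, late 4 or late 5, with a highest BY adjusted p of 0.110, and the BH adjusted p stayed below its threshold in all 10 such fits. It was also lost in male dogs (limma BY adjusted p = 0.196), with the replicate number as a block (0.170) and under quantile normalization (0.0635). With DV200 as a covariate, CD27 passed neither adjustment (limma BH adjusted p = 0.141).

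**Figure D1:**
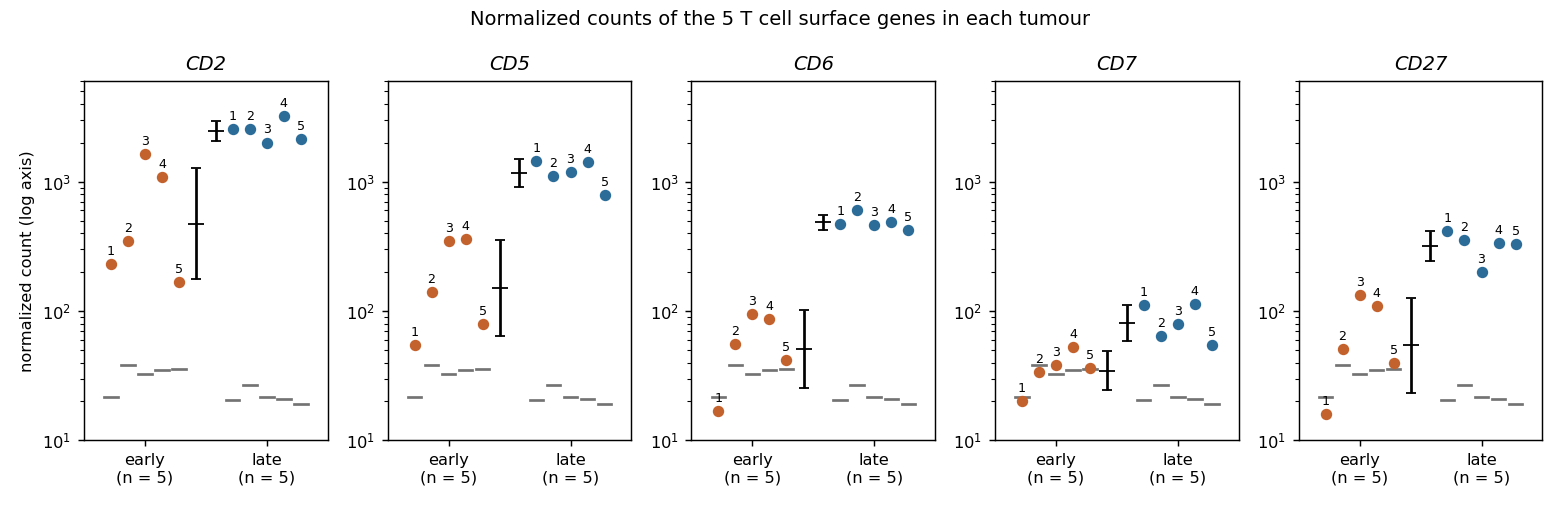
Normalized counts (log axis) of CD2, CD5, CD6, CD7 and CD27 in each of 5 early (orange) and 5 late (blue) tumours, numbered by replicate. Black bars give the mean ± SD on the log2 scale and grey ticks each sample's background. Every late tumour lies above every early tumour, by 4.42-fold for CD6 and by 1.05-fold for CD7, and 2 early tumours are under background for CD7.

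A two-sided exact permutation test of each gene gave p = 0.00794, unadjusted, which is the smallest value that 5 against 5 samples allow and follows from groups that do not overlap. In the plot of all tested genes, CD6 ranked 9 and CD5 ranked 47 by limma p, CD27 ranked 86, CD2 ranked 133 and CD7 ranked 140. The median log2 fold change was -2.53 over the 5 genes and -0.18 over all tested genes. Relative to that median, the differences were -3.06 for CD6, -2.76 for CD5, -2.35 for CD27, -2.20 for CD2 and -1.03 for CD7. The median over all genes became 0.21 under either of the other scalings (geometric mean or quantile) and -0.73 without housekeeping scaling, and each of the 5 genes stayed lower in early CCH under all of them. The 85 called genes split into 70 higher in late and 15 higher in early CCH. This split was 34 to 42 with the geometric mean, 34 to 47 with quantile normalization and 229 to 6 without housekeeping scaling.

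**Figure D2:**
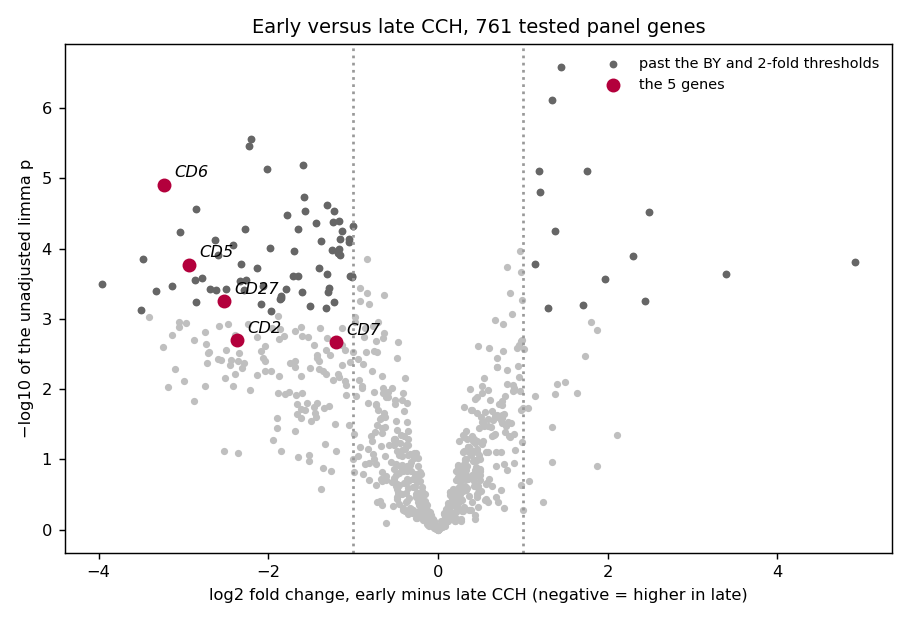
Log2 fold change, early minus late CCH (x axis), against −log10 of the unadjusted limma p (y axis) for 761 genes, with the 5 T cell surface genes in red and genes past the BY and 2-fold thresholds in dark grey. All 5 lie on the side of late CCH, with CD6 at -3.23 and CD7 at -1.20.

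RNA quality moved with stage. Early 3, late 4 and late 5 shared a labelled DV200 of 71.2, and the late tumours of this trio exceeded early 3 by 4.42-fold to 5.08-fold for CD6, 2.24-fold to 4.07-fold for CD5 and 2.47-fold to 2.49-fold for CD27. The same ratio was 1.31 to 1.96 for CD2 and 1.43 to 2.94 for CD7, with no test in 3 samples. The label of late 5 differs from the study's own quality table, so its place in this trio and in the fit with DV200 is uncertain. With DV200 as a covariate in limma, the log2 fold change was -2.75 for CD6 (BH adjusted p = 0.0389, BY adjusted p = 0.281), -2.05 for CD5 (BH adjusted p = 0.125) and -1.19 for CD2 (BH adjusted p = 0.330). It was -1.23 for CD7 and -2.12 for CD27, each with a BH adjusted p of 0.141.

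The early tumours differed among themselves in much the same order for each gene. Early 1 had the lowest CD5, CD6, CD7 and CD27 and the second lowest CD2, whereas early 3 and early 4 had the highest values of all 5 genes. The SD of log2 values in early CCH was 1.42 for CD2, 1.22 for CD5, 1.20 for CD27, 0.98 for CD6 and 0.49 for CD7. In late CCH these SDs were between 0.19 (CD6) and 0.46 (CD7). In late CCH the lowest tumour depended on the gene, since late 5 was lowest for CD5, CD6 and CD7 and late 3 was lowest for CD2 and CD27.

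The same order appeared in the genes of the T cell receptor and CD3 complex, namely CD3D, CD3E, CD3G, CD247, TRAC and TRBC. Their mean log2 level was 4.89, 7.75, 9.46, 9.08 and 6.65 in early tumours 1 to 5 and 10.5, 10.3, 10.1, 10.6 and 10.4 in late tumours 1 to 5. From low to high, the early tumours thus ranked 1, 5, 2, 4 and 3, as they did for CD6 and CD27. All 6 genes were higher in every late than in every early tumour, as were 19.2% of all tested genes, with a median log2 fold change of -2.94, and CD247 passed the BY and 2-fold thresholds.

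To ask whether a surface receptor differed between stages beyond the receptor complex it acts with, each gene was expressed as a log2 ratio to the mean of those 6 genes in the same tumour. None of the 5 ratios passed a threshold in limma, 0 of 5 had an unadjusted p under 0.05, and the early and late groups overlapped for all of them. A lack of calls in this fit says little about these genes, since the variance used for each is shared with all other genes tested. The reference was itself near background in some early tumours, since CD247 was above background in 2 and CD3D in 4 of the 5. The early minus late difference was -0.10 for CD5 (95% interval -1.67 to 1.46), -0.40 for CD6 (-1.96 to 1.16), 0.31 for CD27 (-1.24 to 1.85) and 0.46 for CD2 (-1.16 to 2.08). These intervals leave room for differences of more than 2-fold in either direction, but their width is not that of these genes alone. In this fit limma draws each gene's variance towards that of all 755 genes. The log2 ratio of CD28, with SDs of 0.29 in early and 0.07 in late CCH, had an SE of 0.76. That of CD5 had an SE of 0.78, with SDs of 0.73 and 0.33. The reference itself averaged 7.57 in early and 10.4 in late CCH on the log2 scale, so the ratio moves every gene towards early CCH. Of the 755 genes tested in this way, 52.6% were called, all of them higher in early CCH, and 76.2% passed BH, which the scaling largely sets. The groups separated fully with early above late for 53% of those genes and with late above early for 0.132%.

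CD7 had the largest of these differences, 1.63 on the log2 scale (95% interval -0.04 to 3.29, limma BH adjusted p = 0.0703). Its log2 ratio to the receptor complex was -0.49, -2.63, -4.15, -3.33 and -1.44 in early tumours 1 to 5. In late tumours it averaged -4.04 ± 0.38 (SD, n = 5), and early 3 lay within the late range. An exact permutation test, added after the data were seen, gave p = 0.0317 for CD7, and between 0.357 and 0.817 for the other 4 genes. For CD7, early 1 and early 2 were below background, and with values raised to the highest background the difference was 1.64 (limma BH adjusted p = 0.0437). Without early 1 it was 1.15 (limma BH adjusted p = 0.115), and with DV200 as a covariate 0.72 (limma BH adjusted p = 0.711).

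**Figure D3:**
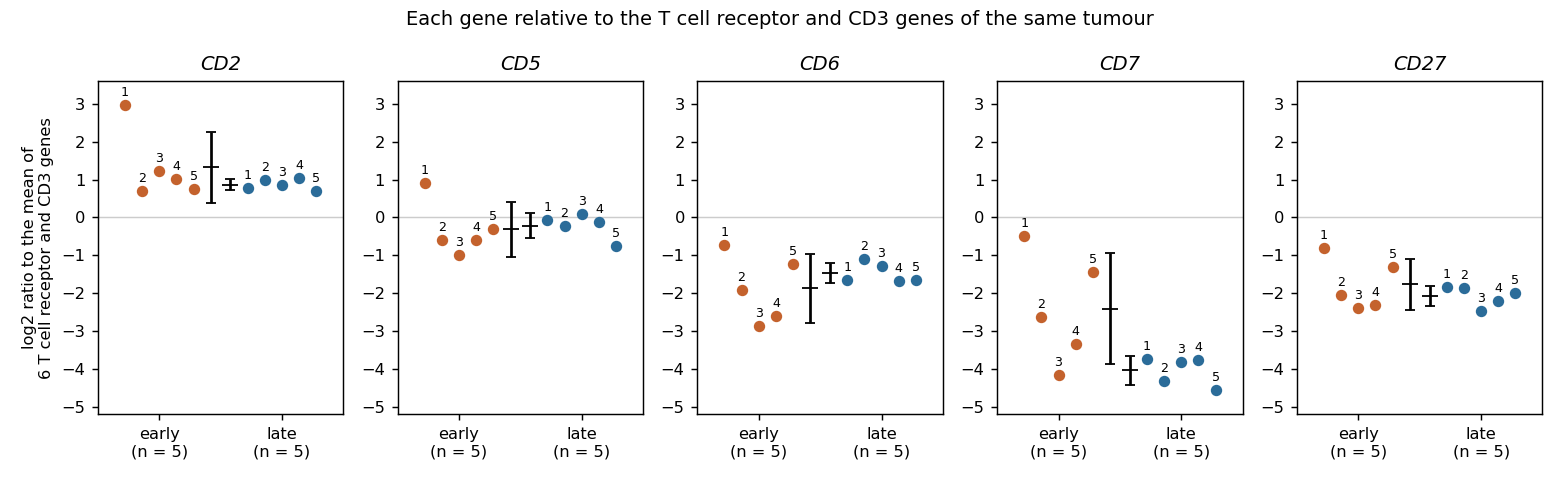
Log2 ratio of each gene to the mean of 6 T cell receptor and CD3 genes (y axis) in 5 early (orange) and 5 late (blue) tumours, numbered by replicate, with mean ± SD in black. The groups overlap for all 5 genes, and early 1 stands high in each panel, at 2.96 for CD2.

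The 5 genes were also set against each other, as 10 pairwise log2 ratios within a tumour. The level of such a ratio depends on the probes, so it is compared between stages only. The smallest differences between stages were those of CD2 over CD27, at 0.15 (exact permutation p = 0.675), and of CD5 over CD6, at 0.30 (exact permutation p = 0.262). The ratio of CD6 to CD27 was -0.10 ± 0.28 in early and 0.60 ± 0.39 in late CCH (SD, n = 5), with no overlap (exact permutation p = 0.00794). The ratios of CD5 to CD7 and of CD6 to CD7 also separated the groups, by -1.73 and -2.03 (exact permutation p = 0.00794 each). These p-values are not adjusted for the 10 pairs, and CD7 was near background in early tumours. CD6 and CD27 were both below background in early 1, and in early 2 and early 5 they were at 1.18 to 1.47 times (CD6) and 1.12 to 1.33 times (CD27) background. The part of background in this ratio was not tested.

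By likeness of profile over the 10 tumours, measured as the root mean square difference of log2 values after centring each gene, CD5 and CD6 were each other's nearest of the 5 genes (0.39). The nearest of the other 756 tested genes was ITGAL, the alpha chain of the leukocyte integrin LFA-1, for both CD5 (0.29) and CD6 (0.29). The costimulatory receptor CD28 (0.36) was also near to CD5, and ITGAL was followed for CD6 by the chemokine CCL4 (0.44) and the kinase TXK (0.51). CD2 was nearest to the transcription factor ETS1 (0.20), to CYFIP2 (0.30) and to IL2RB, a chain of the interleukin 2 receptor (0.37). CD27 was nearest to the inhibitory receptor TIGIT (0.30), to LOC475935 (0.32) and to IL2RB (0.32). For CD7, 422 genes were nearer than the closest of the other 4, CD27 (0.90). This measure includes the difference between stages, which was smaller for CD7, and CD7 was below or within 1.50 times background in all 5 early tumours. Its nearest genes were RELB (0.29), LOC481722 (0.29) and the chemokine CXCL16 (0.34).

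No ligand of these receptors passed the test. Of 8 listed ligands, 5 were on the panel, and 0 of 5 passed either adjustment in limma, had an unadjusted p under 0.05 or separated the groups, with a median log2 fold change of 0.14. Over all tested genes, 35.7% passed BH, 11.2% were called under BY, and 19.2% and 5.39% separated the groups with late and early above, so 0 of 5 is not far from these shares. CD58, the ligand of CD2, was at 643 ± 112 in early and 499 ± 91.6 normalized counts in late CCH (SD, n = 5; 0.37, BH adjusted p = 0.135). CD48, which binds CD2 in rodents, had a log2 fold change of -0.36 (BH adjusted p = 0.112), and ALCAM, the ligand of CD6, of 0.31 (BH adjusted p = 0.371). CD70, the ligand of CD27, was at 331 ± 198 and 397 ± 198 normalized counts (SD, n = 5; -0.32, BH adjusted p = 0.606). LGALS1 (galectin 1), which binds CD7 among others, had a value of 0.14 (BH adjusted p = 0.403).

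Among kinases, adaptors and phosphatases that work near CD2, CD5 and CD6, 7 of 18 listed genes were tested, with a median log2 fold change of -2.02. FYN, PLCG1 and TXK were called higher in late CCH, beside 9.2% of all tested genes, and 6 of 7 passed BH in that direction, beside 27.3%. LCK (-2.72) and TRAT1 (-1.97) were among those that passed BH alone, and the pan-leukocyte phosphatase PTPRC (CD45) passed neither (-0.32). ZAP70, the kinase that binds the CD3 chains, was below background in all 10 tumours.

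For CD27 signalling, 7 of 10 listed genes were tested, with a median of -0.76. NFKB2, the precursor of a subunit of the alternative NF-kB pathway, was called higher in late CCH, from 645 ± 149 to 1381 ± 65.9 normalized counts (SD, n = 5; -1.13, BY adjusted p = 0.0120). Its partner RELB (-1.09) and the adaptors TRAF1 (-0.76) and TRAF3 (-1.61) passed BH alone. TRAF2 had a value of -0.66, and the kinase genes IKBKB and CHUK had values of 0.17 and 0.25, past neither. Of the 9 TNF receptor relatives of CD27, 5 passed BH as higher in late CCH (27.3% of all tested genes did). Under BY 0 of 9 were called, which is not far from the 9.2% of all tested genes called as higher in late CCH. Their values lay between TNFRSF4 (OX40) at -2.13 and TNFRSF13C, a receptor of B cells, at 0.58.

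Of the 8 genes of the CD2 and SLAM family, 5 passed BH as higher in late CCH, beside 27.3% of all tested genes, with a median of -0.63. SLAMF7 was also called under BY, at 154 ± 91.7 in early and 609 ± 151 normalized counts in late CCH (SD, n = 5; -2.13, BY adjusted p = 0.0208). SLAMF6 (-1.86), SLAMF1 (-1.32), CD84 (-0.89) and LY9 (-0.36) passed BH alone. CD244, a receptor of natural killer cells that binds CD48, had a value of 0.99 (BH adjusted p = 0.119) with overlapping groups.

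**Figure D4:**
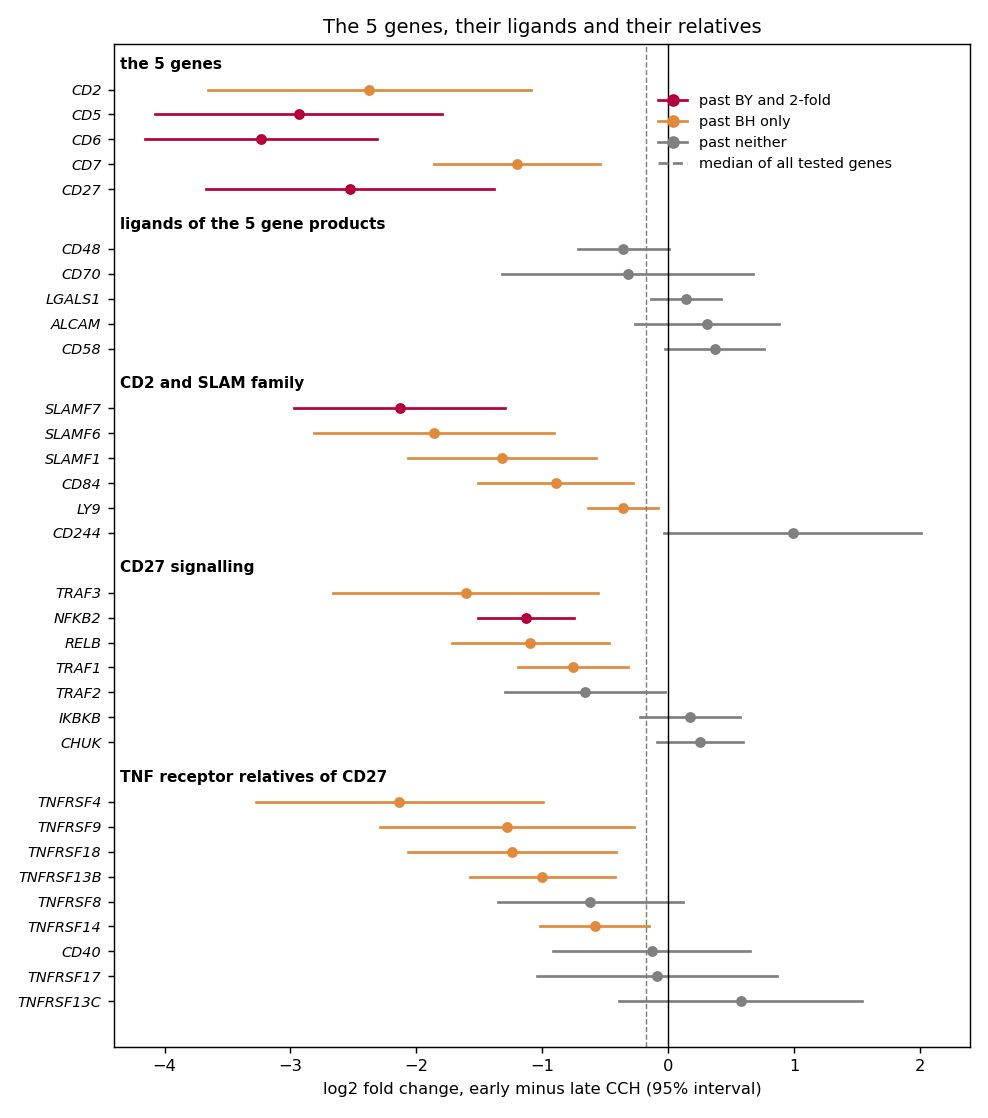
Log2 fold change, early minus late CCH, with 95% interval for the 5 genes, their ligands, the CD2 and SLAM family, CD27 signalling and the TNF receptor relatives of CD27. Red marks genes past BY and 2-fold, orange genes past BH only and grey genes past neither, and the dashed line is the median of all tested genes (-0.18). The 5 ligands lie between -0.36 and 0.37, while CD6 reaches -3.23.

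Many markers of other lymphocytes were also higher in late CCH. Of 10 B cell markers, 7 passed BH as higher in late CCH (median -1.88), beside 27.3% of all tested genes, and their summed normalized counts ran from 2393 to 3755 in early and from 2255 to 11556 in late tumours. The 11556 was that of late 3, and the other late tumours reached 4574 at most. CD79A, a chain of the B cell receptor complex, was called under BY (-2.61), and its partner CD79B (-2.60, past BH only) was above background in 0 of 5 early and 5 of 5 late tumours. CD22 (0.17) and TNFRSF13C (0.58), above background in all 10 tumours, and PAX5 (-1.52) passed neither adjustment. CD22 and TNFRSF13C also had the highest early means of this list, at 1427 and 1171 normalized counts, followed by CD79A at 213. In early CCH the sums therefore follow CD22 and TNFRSF13C more than the other markers. Of 10 natural killer and cytotoxic markers, 6 passed BH as higher in late CCH (median -1.75), also beside 27.3% of all tested genes, with sums of 1017 to 4938 and 4227 to 14624. Late 3 alone had 4227, and the other late tumours had 13103 to 14624. NCR1 (-1.71) and KLRK1 (-1.80) were also called under BY, beside 9.2% of all tested genes called in that direction. The part of these cells in the values of CD2, CD5, CD7 and CD27, which some of them also carry, was not tested.

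The remaining marker lists moved both ways or little. Of 9 tested Langerhans and dendritic markers, 2 passed BH in each direction (median 0.27), beside 27.3% of all tested genes as higher in late and 8.41% as higher in early CCH. FLT3 (2.49) and FCER1A (2.44) were called under BY as higher in early CCH with groups that did not overlap, and CD83 (-1.30) and XCR1 (-1.60) passed BH alone as higher in late CCH. The sums were 2061 to 6492 in early and 2322 to 4357 in late tumours. Of 8 macrophage markers, 2 passed BH as higher in late CCH (median -0.39), a share close to the 27.3% of all tested genes, with sums of 3461 to 7933 and 4731 to 8864. CD68 alone was called under BY (-1.29, limma BY adjusted p = 0.0293), with groups that did not overlap. In that direction, 9.2% of all tested genes were called and 19.2% separated the groups. Of 6 tested keratinocyte markers, 0 passed either adjustment in limma or had an unadjusted p under 0.05 (median 0.50), beside 35.7% of all tested genes past BH and 11.2% called under BY, with sums of 1501 to 9653 and 1287 to 4961.

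**Figure D5:**
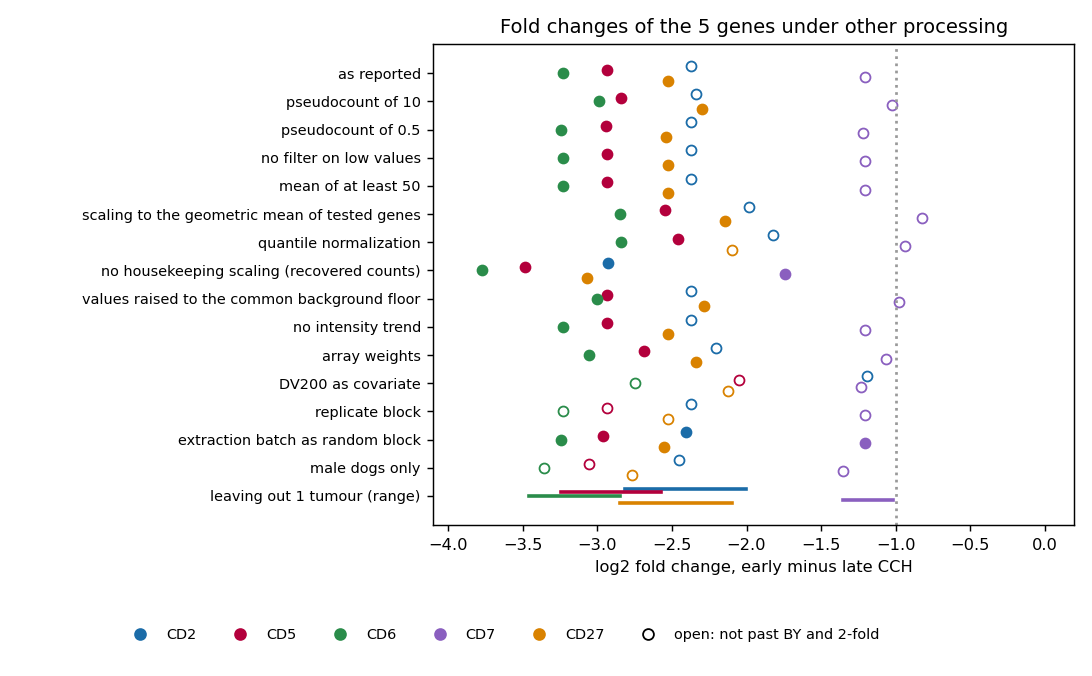
Log2 fold change, early minus late CCH (x axis), of the 5 genes as reported and under each alternative processing (rows), with filled points past BY and 2-fold and open points not. Lines give the range over the 10 fits that left out 1 tumour. All values are negative, and CD7 is the gene that comes within 2-fold (dotted line).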

How the data were processed

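The authors imported barcode counts into nSolver and scaled them to positive controls and then housekeeping genes. The deposited values are a normalized signal on a linear scale for 800 genes, beside 14 unscaled control probes. No background subtraction was stated. Within a sample, gene values were whole multiples of 1 step (within 0.0051, for at least 99.4% of genes), and dividing by it gave recovered counts, used for depth, background and the unscaled alternative only. A count model was not applied, since the values were deposited normalized.

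Log2(normalized count + 1) was fitted in R 4.3.3 with limma 3.58.1 (lmFit, then eBayes with trend) over all 10 samples, with late CCH as baseline. The added 1 makes fold changes of low genes too small. Genes with a mean under 20 were left out, which kept 761. P-values were adjusted over all of them. The script was checked on simulated data. The limma p-values rest on the spread between dogs, with each gene's variance drawn towards that of the other genes tested. For the ratios, this variance includes the spread of the reference, so those p-values do not measure the spread of single genes alone.

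Cartridge and extraction batch came from the study's supplement. Replicate numbers did not pair samples. The genes named are the 5 receptors, the panel genes of the ligand, CD27 signalling and SLAM lists, the extremes of other lists and the 3 nearest profiles of each receptor, and some called or defining genes of other lists were named after their values were seen. Members and lists were chosen with earlier results of these data known. Probe sequences were not used here, and a few genes that these rules would name are not reported here.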

Additional observations from a re-analysis of the deposited data

Results flagged for a closer look

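Of 36 sets of 5 values checked for a tumour far from the rest of its stage, 3 stood out (8.33%), where chance gives about 5%. The log2 ratio of CD2 to the T cell receptor and CD3 genes was 2.96 in early 1 and between 0.69 and 1.21 in the other early tumours. The reference mean was lowest in early 1, at 4.89 on the log2 scale, and in early tumours CD247 was above background in 2 of 5 and CD3D in 4 of 5. The difference in this ratio between stages was 0.46, and it was 0.05 without early 1 and 0.24 with values raised to the highest background. The summed B cell markers reached 11556 normalized counts in late 3, while the rest of that stage had 2255 to 4574. In the same tumour, the summed natural killer and cytotoxic markers were 4227, below the 13103 to 14624 of the others. CD2 and CD27 were at their lowest late values in late 3, at 2009 and 202 normalized counts.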

How the results depend on the processing

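All 5 genes were lower in early CCH under each of the 14 other settings of the fit. At a BH adjusted p of at most 0.05, CD6 passed in 14, CD2, CD5 and CD27 in 13 and CD7 in 12 of them. Quantile normalization took CD27 to -2.10 (BY adjusted p = 0.0635). Without housekeeping scaling CD2 (-2.93) and CD7 (-1.74) were called, among 235 genes. With DV200 as a covariate, limma called 0 genes under BY (197 at an unadjusted p under 0.05, 45 under BH), with CD5 at -2.05, CD6 at -2.75 and CD27 at -2.12. In male dogs (3 early, 4 late) limma called 0 genes under BY (278 at an unadjusted p under 0.05, 133 under BH), with CD5 at -3.05, CD6 at -3.36 and CD27 at -2.77. The extraction batch as a random block (estimated correlation -0.14) called CD2 (-2.41) and CD7 (-1.20), among 118 genes. In this fit the SE fell from 0.58 to 0.54 for CD2 and from 0.30 to 0.26 for CD7. BH in place of BY called 188 genes, CD2 (-2.37) and CD7 (-1.20) included. Both had the smallest exact permutation p, which their separate groups fix. The cause of these shifts was not tested.

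With the replicate number as a block, 1 gene was called, and CD5 (-2.94), CD6 (-3.23) and CD27 (-2.53) had BY adjusted p-values of 0.0879, 0.0748 and 0.170, though same-numbered tumours did not deviate together (correlations from -0.20 to 0.16) and 1 of 5 numbers correlated best with its own.

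Leaving out 1 tumour gave ranges of -2.82 to -2.002 for CD2, -3.25 to -2.58 for CD5, -3.46 to -2.85 for CD6, -1.35 to -1.01 for CD7 and -2.85 to -2.10 for CD27, and between 39 (without late 1) and 98 called genes. The count was 41 without late 4, 47 without early 5, 48 without late 2 and 52 without late 5. For the ratios to the receptor complex, these ranges were 0.05 to 0.62 for CD2, -0.41 to 0.066 for CD5, -0.69 to -0.15 for CD6, 1.15 to 2.06 for CD7 and 0.07 to 0.46 for CD27. The CD5 ratio turned to 0.074 with TRAC and TRBC as reference and to 0.066 without early 3, and the CD27 ratio to -0.17 with DV200 as a covariate. The CD7 ratio (1.63) passed the exact permutation test and, under BH alone, the fits with TRAC and TRBC as reference (1.81), a pseudocount of 10 (1.65) or values at the background floor (1.64), and those without early 3 (2.06) or early 4 (1.86), and in no fit passed BY.

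In early CCH, recovered counts of CD7, CD6 and CD27 were as low as 19, 16 and 15, near background, so their levels there are imprecise.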
